A study of Mus musculus with 12 samples.

Results

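Mitochondrial ribosomal protein genes lie in the nucleus and encode the proteins of the ribosome that works inside mitochondria. That ribosome has a large subunit, whose proteins carry Mrpl symbols, and a small subunit, whose proteins carry Mrps symbols. The members were taken by symbol alone, as every row of the expression table named Mrpl or Mrps with a number and an optional letter a, b or c. The rule found 76 of 26218 gene rows, 47 with an Mrpl and 29 with an Mrps symbol. A filter of at least 5 RPM (read numbers scaled to the same total in each library) in at least 2 of 12 libraries kept 74 members among 10856 genes tested.

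The libraries are 3′-end RNA sequencing of mouse germ cells, 2 in each of 6 groups. Primordial germ cell-like cells (PGCLCs) were made from C57BL/6 embryonic stem cells with the Blimp1-mVenus and Stella-ECFP reporters (BVSC), induced for 4 days and then expanded on m220 feeder cells. They were sorted as BVSC+ cells after 3 (d4c3), 5 (d4c5) or 7 (d4c7) days of expansion, and 10 ng of RNA was amplified. Embryonic germ cells of strain ICR:C57BL/6=1:1 carried the Stella-EGFP reporter (SG) and were sorted as SG+ cells, with 1 ng of RNA amplified. These were female and male germ cells from gonads at E12.5 and primordial germ cells (PGCs) of E9.5, the stage of migration. Culture and embryo therefore cannot be told apart from strain, reporter, sort and RNA input. The labels do not say whether the 2 libraries of a group came from separate cultures or litters. The p-values rest on 1 spread per gene, pooled over the libraries of all 6 groups and moderated over genes. That spread between libraries may be technical.

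The mitochondrial ribosome translates the few proteins that mitochondrial DNA encodes, all of them parts of the respiratory chain and the ATP synthase. Some of its proteins descend from bacterial ribosomal proteins, and others have been found in mitochondria only. Among the members 48 have a bacterial counterpart and 28 are of the second kind. Symbols do not always match positions: Mrps30 and Mrps18a encode proteins that sit in the large subunit. Mrps36 is now known mainly as a component of the 2-oxoglutarate dehydrogenase complex. The rule for the members and the classes uses symbols and known origin.

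Promoters of such genes are known to hold sites for the factors NRF1, GABP (of the ETS family) and YY1, which regulate genes for mitochondrial proteins. RefSeq promoters of GRCm38.p6, from 250 bases before to 50 after the start, were given for 67 members and not for 9. The letters GCGCATGC (NRF1) were found on either strand in 8 of these 67 (11.9%), against 6.89% of tested genes with a promoter. CCGGAAG (ETS) was found in 24 (35.8%), against 22.2%, and AAGATGGCG (YY1) in 8 (11.9%), against 4.04%. At least 1 of the 3 was in 34 members (50.7%), against 30.3% of tested genes and 13.6% of all genes with a promoter. Matches of different motifs could overlap and were counted each on its own. Such a match is a description of letters, not of a bound site. The promoters of Mrps30, Mrps22, Mrps18c and Mrps18b are shown because the naming rule picked these most often among members with a promoter in the table, in 6, 5, 5 and 4 comparisons. The rule names these 4 members wherever they are called, whatever the size of the change, so their counts do not rank them by change. Mrps18b was named for that reason alone. It was tied with Mrpl44, Mrpl53 and Mrpl27 and was taken for its higher mean RPM. The sequences run 5′ to 3′ along the gene. Capitals mark the motifs, which read as the reverse complement where they lie on the opposite strand.
Mrps30: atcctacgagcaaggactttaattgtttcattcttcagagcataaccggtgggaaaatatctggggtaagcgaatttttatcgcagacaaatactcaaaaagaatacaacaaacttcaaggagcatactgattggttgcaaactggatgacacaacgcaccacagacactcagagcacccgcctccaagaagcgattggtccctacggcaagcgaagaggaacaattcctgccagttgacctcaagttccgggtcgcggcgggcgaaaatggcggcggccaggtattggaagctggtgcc
Mrps22: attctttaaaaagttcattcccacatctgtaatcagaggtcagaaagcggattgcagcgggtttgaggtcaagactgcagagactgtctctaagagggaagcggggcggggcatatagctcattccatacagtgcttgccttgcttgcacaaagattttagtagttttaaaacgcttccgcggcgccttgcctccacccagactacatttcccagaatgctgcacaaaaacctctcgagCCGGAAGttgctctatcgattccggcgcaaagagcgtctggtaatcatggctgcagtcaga
Mrps18c: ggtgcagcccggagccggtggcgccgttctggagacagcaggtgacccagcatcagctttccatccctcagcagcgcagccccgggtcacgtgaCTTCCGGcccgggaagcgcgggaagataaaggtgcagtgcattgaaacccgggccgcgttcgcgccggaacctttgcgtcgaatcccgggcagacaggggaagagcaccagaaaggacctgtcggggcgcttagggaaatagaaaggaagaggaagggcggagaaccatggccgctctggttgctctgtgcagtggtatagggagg
Mrps18b: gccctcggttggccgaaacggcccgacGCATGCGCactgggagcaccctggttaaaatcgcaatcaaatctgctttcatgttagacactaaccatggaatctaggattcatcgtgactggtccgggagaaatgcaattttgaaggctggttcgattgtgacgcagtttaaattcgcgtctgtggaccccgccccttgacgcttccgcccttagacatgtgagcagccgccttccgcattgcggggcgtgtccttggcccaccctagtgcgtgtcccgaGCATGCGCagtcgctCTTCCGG
The Mrps30 window, chr13:118387203-118387502 on the minus strand, held none of the 3 motifs. In Mrps22 (chr9:98601630-98601929, minus strand) the first base of an ETS motif lay at -11 from the start. In Mrps18c (chr5:100798509-100798808, plus strand) an ETS motif lay at -156 on the opposite strand of the gene. Mrps18b (chr17:35916391-35916690, minus strand) held NRF1 motifs at -223 and 29 and an ETS motif at 44, all on the opposite strand of the gene.

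Reads in genes, estimated by taking the commonest nonzero value of a library as 1 read, numbered 2218989 to 5816573 per library. A count of 0 allows an expected level of up to 3 reads, which is 0.517 to 1.36 RPM by depth. That limit covers counting error only, because reads of amplified cDNA do not each stand for a molecule. All 11 germ cell markers looked at were detected in culture, at E9.5 and at E12.5. The second d4c7 library stood apart: it was the deepest and had 0 RPM of ERCC spike-in RNA, while the other culture libraries had 59.6 to 72.7 RPM. Spike-in RNA summed to 12107 to 16494 RPM at E12.5 and to 628 to 1372 RPM at E9.5. Blood and endothelium markers summed to 104 to 169 RPM at E12.5 and to 4116 to 4643 RPM at E9.5.

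Nearly all members were expressed at moderate levels in all 6 groups. The 74 tested members had a median of mean RPM of 85.9 (quartiles 62.0 and 128), while all tested genes had a median of 27.5 (quartiles 10.3 and 72.0). Transcripts are read near their 3′ ends and RPM was not divided by length, so an order of genes by RPM is an order of reads. Mrpl15, a core protein of the large subunit, had the most reads, with 285 to 349 RPM over the 12 libraries. Mrpl42, Mrpl23, Mrpl51 and Mrpl18, also of the large subunit, averaged 305, 290.5, 283 and 266 RPM. Of the 76 members 6 averaged over 200 RPM, 55 lay between 50 and 200 RPM and 15 below 50 RPM.

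The members with the fewest reads were Mrpl21, Mrpl36, Mrps17, Mrps5 and Mrps2, all with a bacterial counterpart. Mrpl21 ranged from 0.391 to 2.77 RPM and did not pass the filter. Mrpl36 had 0.391 and 1.33 RPM in d4c3, 0.779 and 0 RPM in d4c5, 0 and 1.55 RPM in d4c7, 4.24 and 3.77 RPM in E12.5 females, 3.75 and 6.32 RPM in E12.5 males and 2.94 and 3.54 RPM at E9.5. It reached 5 RPM in 1 library only and also did not pass, although every culture library was below every embryonic one. Just inside the filter, Mrps17 averaged 6.43 RPM and Mrps5 6.47 RPM.

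**Figure D1:**
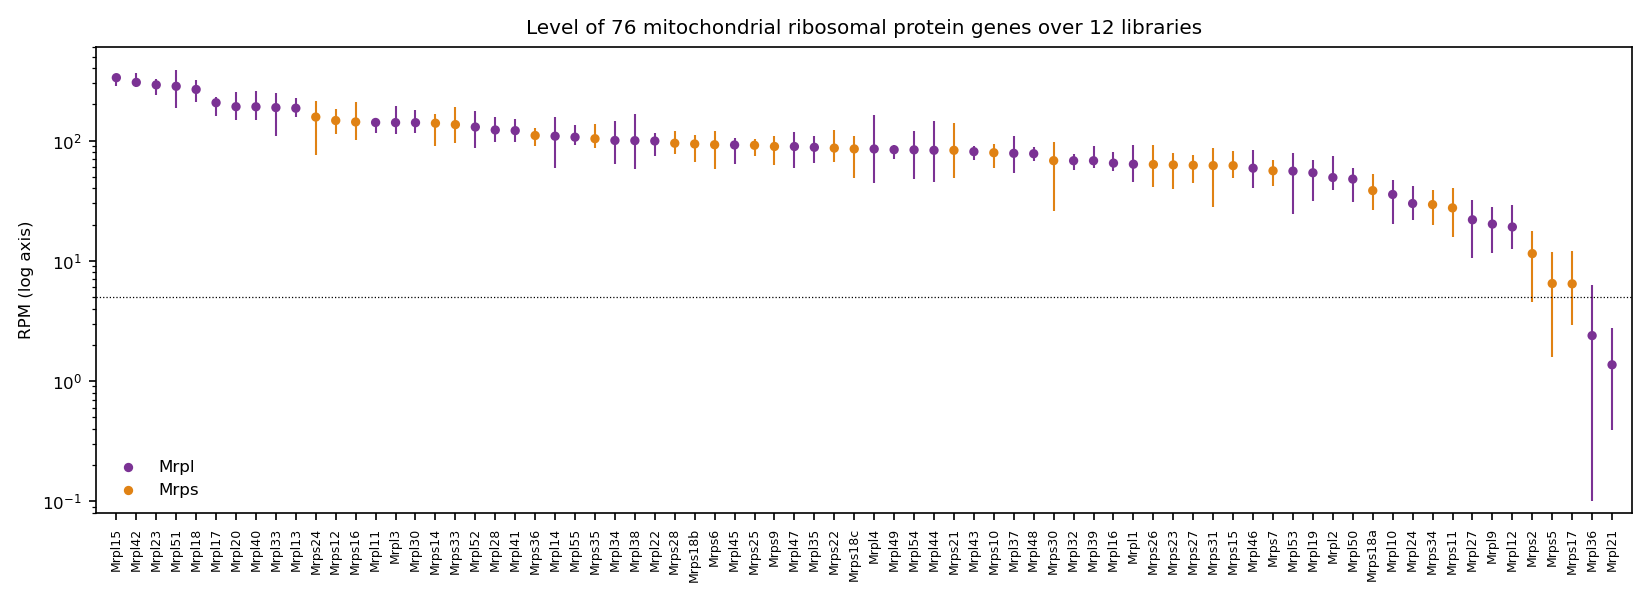
Mean RPM (points) and range over the 12 libraries (lines) of the 76 members on a log axis, Mrpl in purple and Mrps in orange. The dotted line is the filter at 5 RPM, and 0 is drawn at 0.1 for Mrpl36. Most members lie between 50 and 200 RPM.

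As a whole the members took a nearly constant share of the reads. Their summed RPM was 7389 ± 92.4 in d4c3, 7421 ± 62.8 in d4c5 and 7360 ± 74.1 in d4c7 (SD, n = 2 each). It was 7683 ± 110.1 in E12.5 females, 7883 ± 72.8 in E12.5 males and 7502 ± 122 in E9.5 PGCs. The 6 culture libraries lay between 7307 and 7466 RPM and the 6 embryonic ones between 7416 and 7934 RPM, so these ranges overlapped at E9.5 alone. Large-subunit symbols summed to 5037 to 5232 RPM in culture and 5158 to 5553 RPM in embryos, and small-subunit symbols to 2122 to 2303 RPM and 2258 to 2411 RPM. In bulk samples a change in RNA per cell and a change in the share of cells of a type cannot be told apart.

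Single members nevertheless differed between groups. The highest and lowest group mean of a member lay a median of 0.71 apart on the log2(RPM + 1) scale, and of all tested genes 0.98. The widest member was Mrps30, at 1.69. A difference was called where limma's adjusted p was under 0.05 over all genes tested. Any difference among the 6 groups was called for 52 of 74 members, against a background of 63.8% of tested genes. This background, like those given below, was not matched to the higher RPM of the members. Changes are given below as log2(RPM + 1) differences with their SE.

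In expansion culture 1 member changed. Between d4c7 and d4c3, 1 of 74 members was called (1.35%, against 2.75% of tested genes), Mrps24, a small-subunit protein that corresponds to bacterial S3. It had 109.5 and 94.6 RPM in d4c3, 200.3 and 134 RPM in d4c5 and 201 and 163 RPM in d4c7. Each d4c5 and d4c7 library was above each d4c3 library, and the d4c5 and d4c7 libraries overlapped. The d4c7 minus d4c3 difference was 0.83 ± 0.18 (SE, adjusted p = 0.0264). The call held without the second d4c7 library, when 3 members were called, 1 higher and 2 lower. It was lost without either d4c3 library or the first d4c7 library, with an adjusted p of up to 0.159, and no member was then called.

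No member was called between d4c5 and d4c3 (0.0829% of tested genes), where 4 members had an unadjusted p under 0.05. None was called between d4c7 and d4c5 either (0.0184%), where 1 member did. Without the second d4c5 library 1 member was called between d4c5 and d4c3. The median d4c7 minus d4c3 difference was 0.01 over the members and 0.02 over all tested genes. The gap between the 2 libraries of a group, as a root mean square over the members on the log2 scale, was 0.27 to 0.39 in culture and 0.19 to 0.22 in embryos. Mrps30, Mrps22 and Mrpl12 showed d4c7 minus d4c3 differences of -0.15 ± 0.16, 0.16 ± 0.13 and 0.17 ± 0.27, none called.

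Members changed in both directions between E9.5 and E12.5. In E12.5 female germ cells against E9.5 PGCs 15 of 74 members rose (20.3%, against 20.4% of tested genes) and 15 fell (20.3%, against 17.1%). In E12.5 males against the same E9.5 libraries 15 rose (20.3%, against 20.0%) and 11 fell (14.9%, against 17.6%). These shares lie near the background. In males the median difference was 0.10 over the members and 0.05 over all tested genes. The 2 comparisons share the E9.5 libraries, so their values are given side by side. With the median log ratio of each library set to 0, 11 rose and 18 fell in females and 13 rose and 15 fell in males. The number called in females was 14 without the second E9.5 library, 18 without the first, 17 without the second female library and 22 without the first. In males it was 15 or 16 without any 1 of the 4 libraries.

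Positions in parentheses are the genes' spans in GRCm38.p6. Mrps24 (chr11:5703982-5707701) had 204 and 198 RPM in E12.5 females and 212 and 194 RPM in E12.5 males, against 97.1 and 75.6 RPM at E9.5. All 4 gonadal libraries were about 2 times the E9.5 level or more, and the groups did not overlap. The difference was 1.22 ± 0.18 (SE, adjusted p = 1.58e-04) in females and 1.23 ± 0.18 (SE, adjusted p = 1.31e-04) in males. Mrpl4 (chr9:21001252-21008839), whose bacterial counterpart lines the exit tunnel of the ribosome, had 142 and 129 RPM in females and 139 and 162 RPM in males, against 66.5 and 61.7 RPM at E9.5. The difference was 1.07 ± 0.19 (SE, adjusted p = 8.27e-04) in females and 1.22 ± 0.19 (SE, adjusted p = 2.84e-04) in males. Every E12.5 library was above every library of the other 4 groups.

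Mrpl44 (chr1:79776018-79781445), a large-subunit protein with a fold related to RNase III, had 112 and 104 RPM in females and 145 and 141 RPM in males, against 67.6 and 57.8 RPM at E9.5. Its rise was 0.78 ± 0.20 (SE, adjusted p = 0.00700) in females and 1.18 ± 0.20 (SE, adjusted p = 3.78e-04) in males, and the female call was lost without the second E9.5 or the first female library. Mrps22 (chr9:98588730-98601679), a small-subunit protein whose human gene is mutated in mitochondrial disease, had 117 and 114 RPM in females and 123 and 113 RPM in males, against 66.2 and 67.5 RPM at E9.5. The 4 gonadal libraries lay closely together, above all other libraries. Mrps22 rose by 0.78 ± 0.13 (SE, adjusted p = 4.61e-04) in females and 0.81 ± 0.13 (SE, adjusted p = 3.23e-04) in males.

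Further rises among the 6 largest included Mrpl1, a protein of the stalk beside the site where transfer RNA leaves, with 0.86 in males, and Mrpl47, with 0.81 in males. Mrps16 rose by 0.78 and Mrpl35 by 0.72 in females. The remaining called rises were 0.25 to 0.72 in males and 0.26 to 0.69 in females, with Mrpl15 the smallest in both.

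Mrps30 (chr13:118380110-118387252), in the large subunit despite its symbol, showed the largest fall of any member in females. It had 27.6 and 26.2 RPM in E12.5 females and 42.5 and 50.0 RPM in E12.5 males, against 82.4 and 96.2 RPM at E9.5. Females were below males and males below E9.5 in every library. The difference was -1.69 ± 0.16 (SE, adjusted p = 5.54e-06) in females and -0.93 ± 0.16 (SE, adjusted p = 5.15e-04) in males, called in every fit with a library left out. Its annotated end overlapped no other gene and matched no near-identical transcript.

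Mrpl33 (chr5:31613951-31622644), the counterpart of a small bacterial large-subunit protein, had 148 and 145 RPM in females and 115 and 109 RPM in males, against 247 and 227 RPM at E9.5. Here males were lowest, with differences of -0.69 ± 0.10 (SE, adjusted p = 1.91e-04) in females and -1.08 ± 0.10 (SE, adjusted p = 4.39e-06) in males. Mrpl53 (chr6:83109108-83109932), found in mitochondria only, had 34.0 and 24.4 RPM in females and 41.6 and 42.5 RPM in males, against 79.0 and 75.0 RPM at E9.5. The fall was -1.39 ± 0.17 (SE, adjusted p = 4.00e-05) in females and -0.86 ± 0.17 (SE, adjusted p = 0.00135) in males, though its end overlaps an exon of Gm42688 on the same strand. Every E12.5 library of Mrpl53 was below both E9.5 libraries. Mrpl34 (chr8:71464926-71465753) had 71.5 and 63.4 RPM in females and 107 and 103 RPM in males, against 147 and 128 RPM at E9.5. The groups of Mrpl34 did not overlap, with a fall of -1.02 ± 0.13 (SE, adjusted p = 5.54e-05) in females and -0.39 ± 0.13 (SE, adjusted p = 0.0307) in males.

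Mrpl12, which forms the stalk that recruits translation factors, averaged 17.0 ± 4.08 RPM in females and 15.0 ± 3.51 RPM in males, against 28.6 ± 0.689 RPM at E9.5 (SD, n = 2 each). Its fall was -0.74 ± 0.27 (SE, adjusted p = 0.0428) in females and -0.90 ± 0.27 (SE, adjusted p = 0.0162) in males. Both calls were lost without either E9.5 library, the female one also without the second female library and the male one without the first male library. In males the difference was -1.10 for Mrps21 and -0.93 for Mrpl27. The call of Mrps21 was lost without the first E9.5 or the second male library, and that of Mrpl27 without either E9.5 or the second male library. Near-identical transcripts exist elsewhere for both, and counting could split reads between them. In females the difference was -0.77 for Mrpl2, not called without the second E9.5 library, and -0.72 for Mrpl50, not called without the first.

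Other measures moved with stage. Of 6 tested blood and endothelium markers 5, all haemoglobin genes, were lower in E12.5 cells of each sex. The sixth, the endothelial gene Pecam1, was higher in females (1.02 ± 0.25, adjusted p = 0.00526) and not called in males (0.46 ± 0.25). Of the 11 on that list Gata1, Ptprc, Cdh5 and Kdr were at 0 in every E12.5 library, and Cdh5 in both E9.5 libraries. Of 9 tested fibroblast and stromal markers 8 were lower in each sex, with a list sum of 56.6 to 126 RPM at E12.5 and 404 to 414 RPM at E9.5. Hindgut and endoderm markers summed to 127 to 176 RPM at E12.5 and 180 to 209 RPM at E9.5, and gonadal somatic markers to 3.64 to 9.69 RPM and 16.3 to 26.1 RPM. Afp (-4.26 in females, -4.07 in males), Krt8 (-2.46, -3.43) and Sox9 (-3.04, -1.71) were called lower than at E9.5 in each sex. Cdx2 was called lower in males only (-2.77), and Epcam in neither sex. The part of all these markers in the changes of the members, and that of the spike-in level, was not tested.

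**Figure D2:**
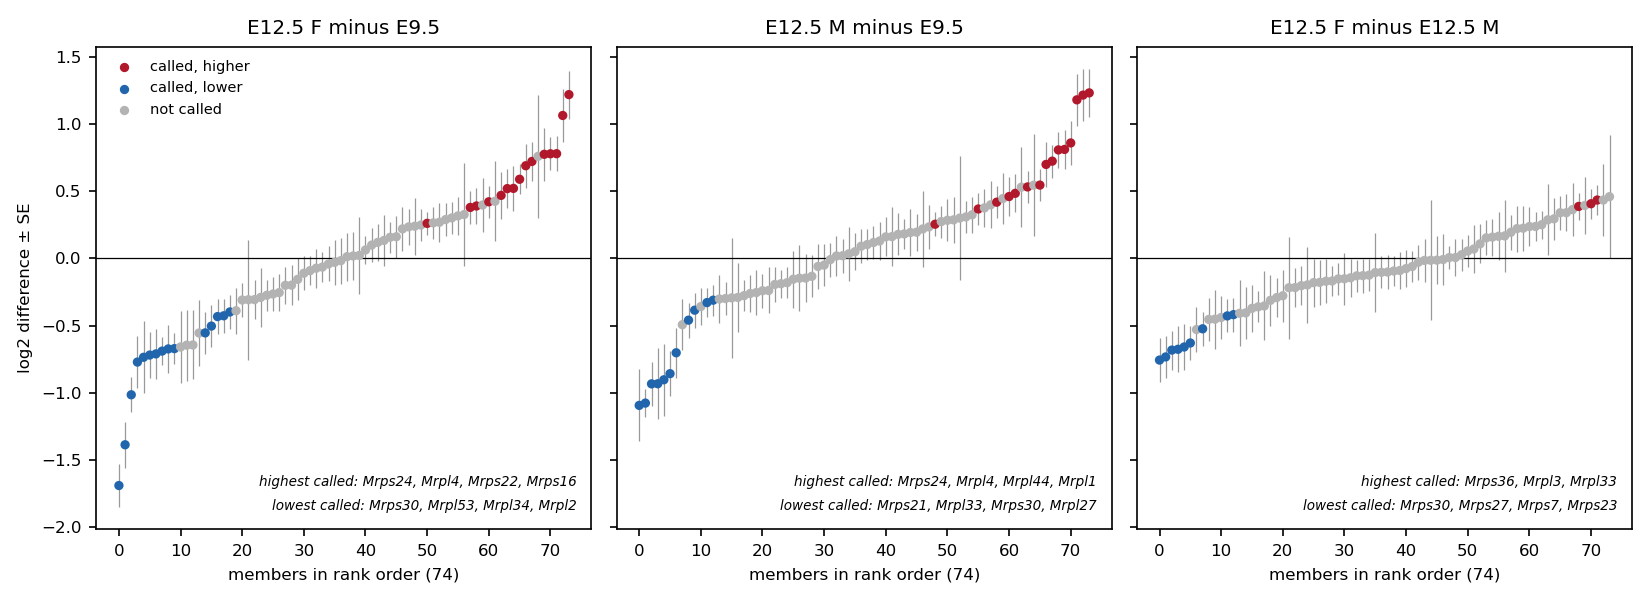
Log2(RPM + 1) difference ± SE of the 74 tested members in rank order, for E12.5 females minus E9.5, E12.5 males minus E9.5 and E12.5 females minus males. Red and blue points were called higher and lower at an adjusted p under 0.05. Rises and falls were about equally many against E9.5, and lower calls outnumbered higher ones between the sexes.

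Between the sexes at E12.5 more members were lower than higher in females. Females had 9 of 74 members lower than males (12.2%, against 5.27% of tested genes) and 3 higher (4.05%, against 6.68%). The median female minus male difference was -0.10 over the members and -0.00 over all tested genes. The members called lower were Mrps30, Mrps27, Mrps7, Mrps23, Mrpl50, Mrpl34, Mrps9, Mrpl22 and Mrps18b. None of the 12 calls was kept in all 4 fits with a library left out, where 1 to 4 members were called, all lower in females. It was 1 without the second female library, 4 without the first, 3 without the second male library and 4 without the first.

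Mrps30 was 26.9 ± 1.02 RPM in females and 46.2 ± 5.28 RPM in males (SD, n = 2 each), a difference of -0.76 ± 0.16 (SE, adjusted p = 0.00775). Mrps27, a small-subunit protein with pentatricopeptide repeats, had 44.0 and 45.3 RPM in females, against 76.3 and 73.5 RPM in males. The difference of -0.73 ± 0.16 (SE, adjusted p = 0.00755) was well over the gap between replicates, and a near-identical transcript exists at 6430562O15Rik. Mrps7, in the head of the small subunit, had 43.4 and 42.2 RPM in females, against 69.4 and 69.2 RPM in males. It differed by -0.68 ± 0.14 (SE, adjusted p = 0.00739), and its end overlaps Mif4gd on the other strand. Mrps23 had 43.0 and 39.2 RPM in females, against 60.3 and 72.9 RPM in males, and differed by -0.68 ± 0.17 (SE, adjusted p = 0.0189).

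Mrpl34 differed by -0.63 ± 0.13 (SE, adjusted p = 0.00651) and Mrpl50 by -0.66 ± 0.17 (SE, adjusted p = 0.0217), with no overlap between the sexes in either. Of the 3 members higher in females, Mrps36 had 125 and 128 RPM in females, against 96.7 and 89.4 RPM in males (0.44 ± 0.11, adjusted p = 0.0240). Mrps36 has near-identical pseudogenes, among them Mrps36-ps1 and Mrps36-ps2. Mrpl3, a core large-subunit protein, had 194 and 191 RPM in females, against 156 and 135 RPM in males (0.41 ± 0.11, adjusted p = 0.0311). Mrpl33 had the third difference, of 0.39 ± 0.10 (SE, adjusted p = 0.0257).

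Beside these differences, germ cell markers summed to 6262 to 6287 RPM in females and 7763 to 7883 RPM in males. Single germ cell markers went both ways, with Tfap2c (1.11) and Sox2 (0.44) called higher in females and Dppa3 (-0.72) lower. No other marker of that list was called. Fibroblast and stromal markers summed to 124 to 126 RPM in females and 56.6 to 69.2 RPM in males, and 1 of 9 tested, Vim, was called higher in females (1.08). Hindgut and endoderm markers summed to 127 RPM in both female libraries and 175 to 176 RPM in males, with Cdx2 higher (2.62) and Epcam lower (-0.60) in females. Gonadal somatic markers summed to 3.64 to 6.19 RPM in females and 6.62 to 9.69 RPM in males, with Sox9 lower in females (-1.33). Blood and endothelium markers summed to 160 to 169 RPM in females and 104 to 131 RPM in males, and none of 6 tested was called. Spike-in RNA summed to 12107 and 14003 RPM in females and 14411 and 16494 RPM in males. Their part in the result was not tested.

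**Figure D3:**
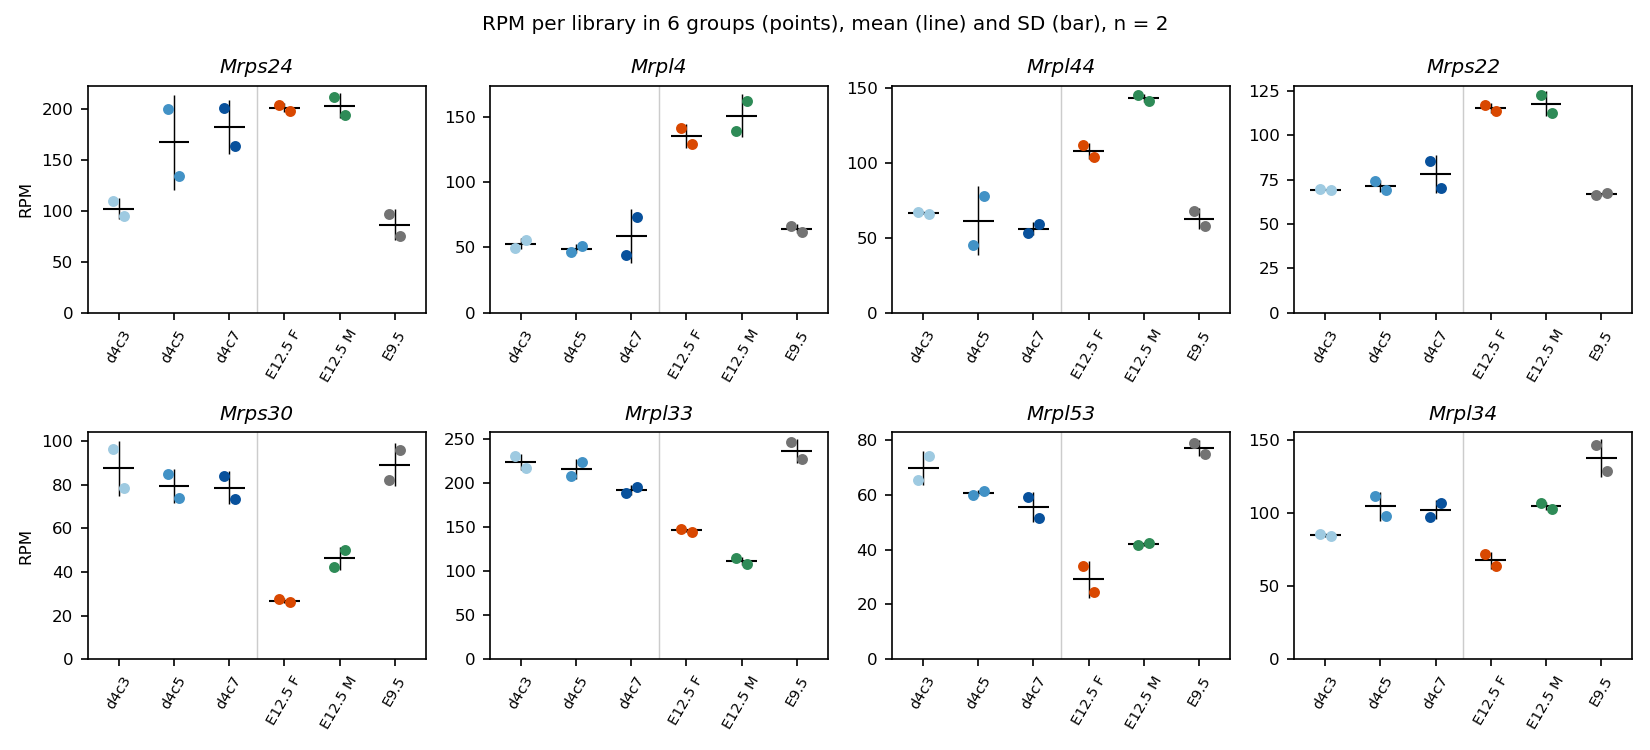
RPM of 8 members in each library (points) with the mean (horizontal line) and SD (vertical line) of the 2 libraries of a group. Mrpl4, Mrpl44 and Mrps22 were highest in the 4 E12.5 libraries, while Mrps30, Mrpl33 and Mrpl53 were lowest there.

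The 3 genes whose symbols share the number of bacterial S18 encode proteins at different places of the ribosome. Mrps18a, in the large subunit, had 34.4 and 28.4 RPM in d4c3, 28.8 and 30.3 RPM in d4c5 and 26.3 and 40.8 RPM in d4c7. It had 51.5 and 52.6 RPM in E12.5 females, 35.9 and 43.1 RPM in E12.5 males and 47.8 and 40.3 RPM at E9.5. The differences from E9.5 of 0.24 ± 0.21 in females and -0.15 ± 0.21 in males were not called. Mrps18b, a small-subunit protein, had 95.8 to 111 RPM over the 6 culture libraries, 68.8 and 65.8 RPM in females, 84.7 and 96.2 RPM in males and 91.5 and 86.6 RPM at E9.5. It was lower in females than in males, with a difference of -0.42 ± 0.13 (SE, adjusted p = 0.0462), a call that no fit with a library left out kept, and its end overlaps the antisense gene Gm16279. Mrps18c, the small-subunit counterpart of bacterial S18, had 79.3 to 100.5 RPM over the 6 culture libraries, 78.5 and 49.2 RPM in females, 61.1 and 64.0 RPM in males and 96.1 and 109 RPM at E9.5. Both sexes were below E9.5, with differences of -0.71 ± 0.19 (SE, adjusted p = 0.00892) in females and -0.70 ± 0.19 (SE, adjusted p = 0.00950) in males. These calls were lost without the second E9.5 library, and without the second female or the first male library. Mrps18b was also called lower in females than at E9.5 (-0.40). In culture against embryo Mrps18a was called lower in culture, and Mrps18b and Mrps18c higher. The same calls were made for d4c7 against E12.5 females, and Mrps18c was also called higher in d4c7 than in E12.5 males. Near-identical transcripts exist for Mrps18c at Gm15946, Gm44950 and Zdhhc21, and for Mrps18b at Gm13552. A test of a difference between the 3 genes was not made.

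Averaged over their groups, cultured and embryonic cells differed in members about as often as in other genes. With the 3 culture groups averaged and set against the 3 embryonic ones, 20 of 74 members were higher in culture (27.0%, against 27.7% of tested genes) and 23 lower (31.1%, against 26.8%). Of these 43 calls 37 were kept in all 12 fits with a library left out. Without the second d4c7 library 48 were called, 20 higher and 28 lower. The median culture minus embryo difference was -0.03 over the members and -0.01 over all tested genes.

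Mrpl54, a large-subunit protein found in mitochondria only, ranged over 48.3 to 74.3 RPM with a median of 55.0 in culture, against 92.4 to 119 RPM with a median of 112 in embryos. Every culture library was below every embryonic one, with a difference of -0.91 ± 0.10 (SE, adjusted p = 3.98e-06). Mrpl52, of the same kind, ranged over 87.3 to 107 RPM with a median of 97.1 in culture, against 138 to 175 RPM with a median of 172 in embryos, and also did not overlap (-0.75 ± 0.07, adjusted p = 1.02e-06). Mrpl38 ranged over 58.5 to 84.5 RPM with a median of 69.6 in culture, against 92.5 to 166 RPM with a median of 134 in embryos (-0.82 ± 0.10, adjusted p = 1.07e-05). Its ranges did not overlap either, and among embryonic libraries those of E9.5 were lowest, at 96.3 and 92.5 RPM.

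Mrpl4 was lower in culture, with a difference of -1.04 ± 0.11 (SE, adjusted p = 4.69e-06), but its groups overlapped, with 44.0 to 73.5 RPM in culture and 66.5 and 61.7 RPM at E9.5. Mrps5 and Mrps11, both with a bacterial counterpart, were lower, with differences of -1.02 ± 0.27 (SE, adjusted p = 0.00516) and -0.73 ± 0.16 (SE, adjusted p = 0.00187). The ranges of Mrps11 overlapped, at 15.8 to 32.4 RPM in culture and 29.8 to 40.3 RPM in embryos. Mrps5 was near the filter, at 1.57 to 5.77 RPM with a median of 4.46 in culture and 6.32 to 11.8 RPM in embryos. Its embryonic libraries, where it was high, were enough to pass the filter of 5 RPM.

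Higher in culture were Mrps30 (0.75 ± 0.09, adjusted p = 1.57e-05), Mrpl9 (0.64 ± 0.14, adjusted p = 0.00172), Mrpl27 (0.59 ± 0.15, adjusted p = 0.00473) and Mrpl51 (0.56 ± 0.08, adjusted p = 5.21e-05). Mrpl51, a large-subunit protein found in mitochondria only, ranged over 276 to 388 RPM with a median of 337 in culture, against 187 to 262 RPM with a median of 225 in embryos. These ranges did not overlap, nor did those of Mrpl9, at 21.2 to 28.1 RPM in culture and 11.7 to 19.7 RPM in embryos. Those of Mrpl27 did overlap, at 19.9 to 31.8 RPM in culture and 10.5 to 25.4 RPM in embryos. Mrps30 had 73.4 to 96.6 RPM in culture and 82.4 and 96.2 RPM at E9.5, so these overlapped, and all E12.5 libraries were below both.

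Single culture times were also set against single embryonic groups. In d4c3 against E9.5 PGCs 3 members were higher (4.05%, against 13.4% of tested genes) and 9 lower (12.2%, against 10.3%). In d4c7 against E12.5 males 8 were higher (10.8%, against 19.0%) and 22 lower (29.7%, against 17.6%). In d4c7 against E12.5 females 21 were higher (28.4%, against 19.8%) and 19 lower (25.7%, against 19.0%). Of the calls, 2 of 12, 12 of 30 and 20 of 40 were kept in all 4 fits with a library left out. Without the second d4c7 library 9 members were higher and 22 lower against males, and 18 higher and 20 lower against females. Against males 16 to 18 were called without any 1 of the other 3 libraries, and against females 25 without either female library and 33 without the first d4c7 library. In d4c3 against E9.5 it was 6 without either d4c3 library, 3 without the first E9.5 library and 4 without the second.

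In d4c3, Mrpl54 (-0.87 ± 0.17, adjusted p = 0.00185) and Mrpl34 (-0.69 ± 0.13, adjusted p = 0.00168) were lower than at E9.5 in each of those fits. Mrpl34 had 85.7 and 83.8 RPM in d4c3, against 147 and 128 RPM at E9.5. Mrpl2 was lower (-0.69 ± 0.19, adjusted p = 0.0180), as was Mrps6 (-0.57 ± 0.18, adjusted p = 0.0322), while Mrpl40 was higher (0.58 ± 0.16, adjusted p = 0.0180), and none of these calls held without either E9.5 library. In d4c7 against E12.5 males the difference was -1.39 ± 0.19 (SE, adjusted p = 1.23e-04) for Mrpl4 and -1.34 ± 0.20 (SE, adjusted p = 1.68e-04) for Mrpl44. Mrps30 was higher in d4c7, at 84.0 and 73.4 RPM, than in E12.5 females, by 1.51 ± 0.16 (SE, adjusted p = 1.29e-05). Mrpl33 was higher in d4c7, at 188 and 196 RPM, than in E12.5 males, by 0.78 ± 0.10 (SE, adjusted p = 7.88e-05).

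Markers moved with culture as well. Blood and endothelium markers summed to 48.7 to 89.6 RPM in culture and 104 to 4643 RPM in embryos, with 6 of 6 tested called lower, and 6 of the 11 were at 0 in all culture libraries. Spike-in RNA summed to 0 to 72.7 RPM in culture and 628 to 16494 RPM in embryos. Germ cell markers summed to 3188 to 3883 RPM in culture and 4009 to 7883 RPM in embryos, but single ones went both ways. Nanog (1.37), Prdm1 (0.69), Sox2 (0.59) and Tfap2c (0.49) were called higher in culture. Dnd1 (-1.57), Ddx4 (-1.23), Dppa3 (-1.09), Dazl (-0.81) and Nanos3 (-0.47) were called lower, and Pou5f1 and Kit were not called. Fibroblast and stromal markers summed to 78.5 to 169 RPM in culture and 56.6 to 414 RPM in embryos. Pdgfrb (1.94) and Dcn (1.96) were higher in culture, and Pdgfra, Postn, Vim and Twist1 lower (-1.31 to -0.61). Pdgfrb had 5.48 to 7.68 RPM in culture, 0 in every E12.5 library and 7.35 and 6.60 RPM at E9.5. Hindgut and endoderm markers summed to 157 to 236 RPM in culture and 127 to 209 RPM in embryos, with Epcam higher (0.48) and Cdx2 (-1.12) and Afp (-1.44) lower. Gonadal somatic markers summed to 1.98 to 4.48 RPM in culture and 3.64 to 26.1 RPM in embryos, with Sox9 lower (-1.46). Their part in the differences of the members was not tested.

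**Figure D4:**
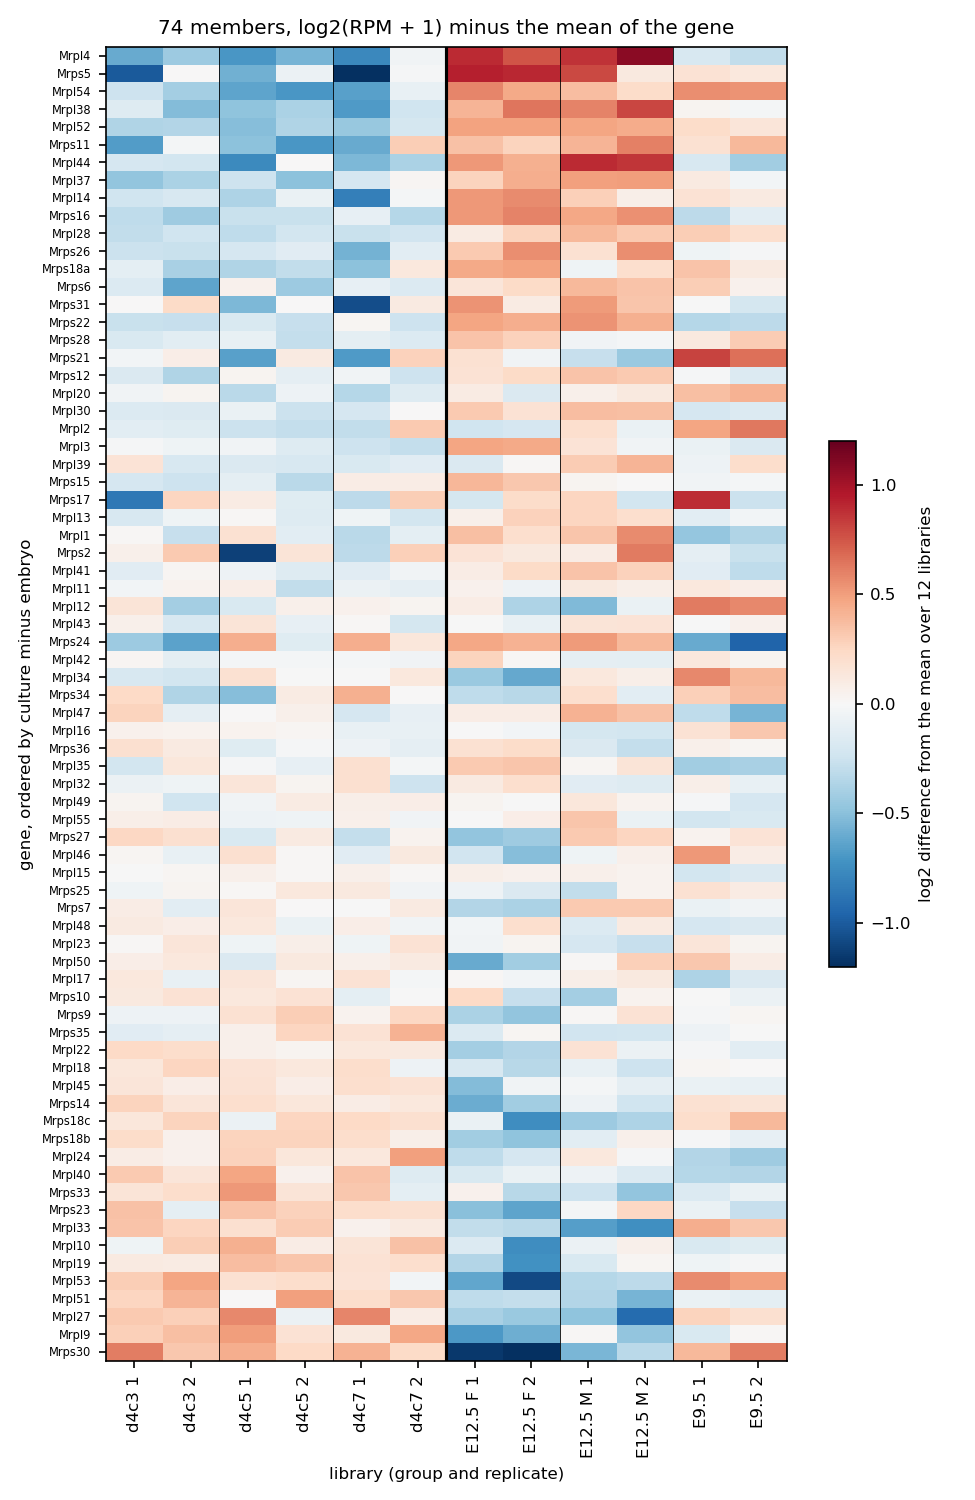
Log2(RPM + 1) of the 74 tested members in each of the 12 libraries, minus the mean of the gene, ordered by culture minus embryo. Mrpl4, Mrps5 and Mrpl54 stand at the end that was lower in culture and Mrps30 at the end that was higher, with the other members between them.

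Members of both origins and of both subunits were among the calls. In culture against embryo, members with a bacterial counterpart gave 12 higher and 15 lower of 46 tested, and members found in mitochondria only 8 and 8 of 28. Over all tested genes 27.7% were higher and 26.8% lower, near these shares. Large-subunit symbols gave 12 higher and 13 lower of 45, and small-subunit symbols 8 and 10 of 29. In E12.5 males against E9.5, large-subunit symbols gave 11 higher and 7 lower and small-subunit symbols 4 and 4, where all tested genes gave 20.0% higher and 17.6% lower. A test of a difference between these classes was not made.

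Proteins of the mitochondrial ribosome without an Mrpl or Mrps symbol were also looked at, 7 genes in all, each tested. Against E9.5, 3 were higher and 1 lower in E12.5 females and 2 higher and 1 lower in E12.5 males. The shares of all tested genes against which this and the following lists stand were 20.4% higher and 17.1% lower in females and 20.0% and 17.6% in males, and 27.7% and 26.8% in culture against embryo. The counts of the lists were not tested against these shares. In culture against embryo 2 were higher and 3 lower, with a list median of -0.15. Chchd1, a small-subunit protein, had 143 and 143 RPM in females and 94.7 and 94.5 RPM in males, against 206 and 197 RPM at E9.5. The fall was -0.49 ± 0.11 (SE, adjusted p = 0.00324) in females and -1.08 ± 0.11 (SE, adjusted p = 6.68e-06) in males, and Chchd1 was higher in females than in males by 0.59 ± 0.11 (SE, adjusted p = 0.00308). Gadd45gip1, also named CRIF1, which inserts at the exit tunnel, had 196 and 202 RPM in females and 228 and 239 RPM in males, against 107 and 111 RPM at E9.5. It rose by 0.87 ± 0.19 (SE, adjusted p = 0.00307) in females and 1.10 ± 0.19 (SE, adjusted p = 5.87e-04) in males.

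Of 15 tested mitochondrial translation factors 2 were higher and 1 lower in females against E9.5, and 4 were higher and 1 lower in males (all tested genes 20.4% and 17.1% in females, 20.0% and 17.6% in males). In culture against embryo 1 was higher and 5 lower, with a median difference of -0.19 over the list, against -0.01 over all tested genes. The elongation factor Tufm, with 42.0 to 107 RPM with a median of 71.1 in culture, against 108 to 159 RPM with a median of 135 in embryos, was lower, with a difference of -0.96 ± 0.18 (SE, adjusted p = 4.22e-04). Its exchange factor Tsfm was lower too (-0.66 ± 0.11, adjusted p = 2.39e-04), with 18.7 to 30.9 RPM in culture, against 30.7 to 55.1 RPM in embryos. Culture values of Tufm varied widely, the second d4c7 library being highest.

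Factors for assembly of the ribosome and modification of its RNA gave 26 tested genes. Against E9.5, 3 were higher and 5 lower in female cells, and 4 rose and 4 fell in male cells. In culture against embryo 7 were higher and 6 lower (27.7% and 26.8% of all tested genes), with a list median of 0.07. Rpusd3, a pseudouridine synthase of mitochondrial RNA, was higher in culture by 1.08 ± 0.14 (SE, adjusted p = 3.20e-05). Ngrn, which binds the large ribosomal RNA, was higher in culture by 0.76 ± 0.10 (SE, adjusted p = 2.36e-05). Rbfa, which binds the small subunit during assembly, was lower in culture (-0.93 ± 0.21, adjusted p = 0.00215).

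Of 11 tested genes for copying and transcribing mitochondrial DNA, 3 were higher and 1 lower in culture (27.7% and 26.8% of all tested genes), with a list median of 0.11. Tfam, which packs that DNA, was higher in culture by 0.49 ± 0.09 (SE, adjusted p = 3.09e-04). The polymerase gene Polg was higher in females than in males, at 108 and 103 RPM, against 71.9 and 63.5 RPM (0.63 ± 0.13, adjusted p = 0.00738). Polrmt, the RNA polymerase, was lower in females, at 33.0 and 35.2 RPM, against 57.2 and 63.2 RPM (-0.80 ± 0.19, adjusted p = 0.0122). The Polg call was lost without the second male or the first female library, and the Polrmt call without any 1 of the 4 libraries.

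Among 8 tested regulators of mitochondrial genes, 2 were higher and 3 lower in culture than in embryos (27.7% and 26.8% of all tested genes), with a list median of -0.17. Yy1 had 44.6 and 50.8 RPM in females and 86.3 and 72.3 RPM in males, against 117 and 116 RPM at E9.5, with a fall of -1.28 ± 0.15 (SE, adjusted p = 3.04e-05) in females and -0.56 ± 0.15 (SE, adjusted p = 0.0100) in males. The male call of Yy1 was lost without either E9.5 library or the second male library. Myc was also lower than at E9.5, by -1.76 ± 0.37 (SE, adjusted p = 0.00225) in females and -1.14 ± 0.37 (SE, adjusted p = 0.0268) in males. Esrra was higher in females than at E9.5 (1.00 ± 0.27, adjusted p = 0.00903) and than in males (1.15 ± 0.27, adjusted p = 0.0121). Gabpa, a subunit of GABP, was higher in culture by 0.73 ± 0.09 (SE, adjusted p = 1.16e-05), and its ranges did not overlap. Nrf1 was lower in culture (-0.70 ± 0.15, adjusted p = 0.00138). Pprc1, a coactivator of the PGC-1 family, had 192 and 201 RPM in females and 238 and 219 RPM in males, against 138 and 144 RPM at E9.5, and rose by 0.48 ± 0.10 (SE, adjusted p = 0.00294) in females and 0.69 ± 0.10 (SE, adjusted p = 1.86e-04) in males. In the culture contrasts (d4c5 or d4c7 against d4c3, and d4c7 against d4c5) no gene of these 5 lists was called.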

How the data were processed

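The authors deposited RPM, read numbers that they scaled to the reads in genes, for 12 libraries of amplified 3′-end cDNA. Tools listed in the submitters' processing notes, without their roles, are TopHat 1.4.1, Cufflinks 2.2.0 and cutadapt 1.3, with build mm10. Between 81.8% and 87.0% of low values were whole multiples (within 0.1 read) of the commonest nonzero value of the library. Whole reads were therefore not recovered and no count test was used. One limma 3.58.1 model (R 4.3.3) with 6 group means was fitted to log2(RPM + 1) of 10856 genes, with a mean-variance trend, 6 residual and 8.02 prior degrees of freedom, and Benjamini-Hochberg adjustment over all of them. The other 15362 gene rows did not pass the filter. The log2(RPM + 1) scale understates changes of low genes. Alternatives were pseudocounts of 0.5 and 5, no filter, a filter at 10 RPM, median scaling, no trend, a replicate block, only the groups compared, and each library left out. Named members were up to 6 called rises and 6 called falls per comparison, the extremes of level and Mrps18a, Mrps18b, Mrps18c, Mrps30, Mrps36, Mrps22 and Mrpl12, and of other lists up to 4 called genes each. The members and lists were chosen with earlier results of these data known.

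Positions and promoters are RefSeq's, of GRCm38.p6. In the GENCODE M21 annotation of the same genome, 30 members had an exon of another gene within their last 500 bases (3 on the same strand, 9 on the other) or a transcript elsewhere at least 95% identical over 100 bases (20, BLAST 2.17.0+). Besides members marked where they are named, these include Mrpl12, Mrpl21, Mrpl22, Mrpl23, Mrpl36, Mrpl40, Mrpl42, Mrpl51 and Mrps5. The strand setting of the counting is not given in the sources used here. The proteins of Mrps18a, Mrps18b and Mrps18c were not used here.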

Additional observations from a re-analysis of the deposited data

Results flagged for a closer look

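For 12 members the female minus male contrast at E12.5 was called, which equals the difference of the female and the male change from E9.5, as both use the same E9.5 libraries. None of the 12 was kept in all 4 fits with a library left out, in which 1 to 4 members were called, and 6 were called with no trend. The differences on the log2(RPM + 1) scale were -0.76 for Mrps30, -0.73 for Mrps27, -0.68 for Mrps7, -0.68 for Mrps23 and -0.66 for Mrpl50. They were -0.63 for Mrpl34, -0.52 for Mrps9, -0.43 for Mrpl22 and -0.42 for Mrps18b. They were 0.39 for Mrpl33, 0.41 for Mrpl3 and 0.44 for Mrps36. Mrps30, Mrpl33 and Mrpl34 were called lower than at E9.5 in both sexes. The changes were -1.69 in females and -0.93 in males for Mrps30, and -0.69 and -1.08 for Mrpl33. For Mrps7 the female change was -0.31 and the male change 0.38, of opposite sign, and neither was called. For Mrpl3 the female change of 0.59 was called and the male change of 0.18 was not. No member could be examined for a sample far from the others, since groups hold 2 libraries.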

How the results depend on the processing

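No called change of a gene picked by the naming rule reversed its sign under any alternative. Changes that were named but not called were not followed through the alternatives. With groups of 2, leaving out a library leaves a lone one that is assumed to vary like the other groups. The number of members called between d4c7 and d4c3, 1 as reported, was 0 with no filter, with no trend and with only the groups compared, and 0 to 3 with a library left out. Between d4c5 and d4c3 it was 0 to 1, being 1 without the second d4c5 library. Between E12.5 males and E9.5, 26 as reported, it was 15 to 16 with a library left out and 38 with only the groups compared. Between E12.5 females and E9.5, 30 as reported, it was 14 to 22 with a library left out and 45 with only the groups compared. Between E12.5 females and males, 12 as reported, it was 6 with no trend and 1 to 4 with a library left out. Between d4c3 and E9.5, 12 as reported, it was 5 with no trend and 3 to 6. Between d4c7 and E12.5 males, 30 as reported, it was 15 with only the groups compared and 16 to 31. Between d4c7 and E12.5 females, 40 as reported, it was 20 with only the groups compared and 25 to 38. The main fit pooled 1 spread per gene over all 6 groups, while the fit of only the groups compared used their libraries alone. The root mean square gap between replicates over the members was 0.27 to 0.39 in culture and 0.19 to 0.22 in embryos. The cause of the moves in these counts was not tested. Culture against embryo stayed at 40 to 48 calls and the test of any difference at 38 to 56 under all alternatives run.

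The labels do not say what a replicate number marks, so whether it marks a shared culture, litter or batch is not known. Replicate differences correlated at 0.12 to 0.46 between culture groups and at -0.04 to 0.03 in pairs with an embryonic group. The main fit treated all libraries as independent. With a replicate block 27, 32 and 12 members were called for males against E9.5, females against E9.5 and females against males, 1 for d4c7 against d4c3 and 44 for culture against embryo.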
